A study of Mus musculus with 98 samples.

Results

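The transcripts of differentiating mouse stem cells were followed after Igf2bp3 had been targeted with siRNA and new transcription had been stopped with actinomycin D. The experiment holds 12 of the 98 libraries of the series, 6 labelled siIgf2bp3 and 6 labelled siNC2, a negative control siRNA, with 2 libraries for each arm at 1, 2 and 3 h of actinomycin D. They were chosen by their labels alone. All 12 came from diffTBLC, totipotent blastomere-like cells (TBLC) kept for 3 days in SLM medium, and all received actinomycin D, so no library is free of the drug. Some of these cells become primitive endoderm (PrE) in SLM, while others keep transcripts of the epiblast (EPI). The labels name no strain, age, drug dose or siRNA sequence, and nothing says that the 2 libraries of a group came from separate cultures. The p-values below therefore measure the spread between these libraries, which may be technical. In the fit over the 3 hours, an arm difference that changes with the hour counts as spread too. The 0 h libraries of the course are left out of all fits unless stated. Other libraries of the series are used to group genes or as values side by side: siVirma and siNC1 in the same design, an Igf2bp3 immunoprecipitation (RIP) with its input, and PrE-T and EPI-T cells sorted from such cultures.

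Igf2bp3 belongs to a family of RNA-binding proteins that bind mRNA, many of them at sites carrying N6-methyladenosine (m6A), and that have been described as protecting their targets from decay and aiding their translation. Virma is a scaffold of the complex that writes m6A. Actinomycin D intercalates into DNA and blocks RNA polymerases, so that over the following hours short-lived transcripts disappear and long-lived ones make up a growing share of what is left. No spike-in is described. A level in CPM, counts scaled to the size of the library, or a slope over the hours is therefore relative to the other transcripts and gives no absolute half-life.

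The libraries of the 2 arms differed in composition as well as in single genes. Library totals ran from 13141572 to 21108399 counts. The 85 cytosolic ribosomal protein genes took 12.02% and 12.3% of all counts at 1 h in siIgf2bp3, 14.5% and 14.9% at 2 h and 21.2% and 21.6% at 3 h. In siNC2 they took 8.84% and 8.59% at 1 h, 12.7% and 12.8% at 2 h and 10.4% and 10.3% at 3 h. The share was thus higher in siIgf2bp3 at every hour, by least at 2 h, and it did not climb steadily in siNC2. The mitochondrial share at 3 h was 0.691% and 0.664% in siIgf2bp3, against 2.15% and 2.19% in siNC2. A further fit with the log2 ribosomal protein share as a covariate was added after the data had been seen. Since the share itself differs between the arms, the covariate takes up part of any arm difference, and how much of a gene's change goes with composition and how much with the siRNA cannot be told apart. Values from this fit are called composition-adjusted here.

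**Figure D1:**
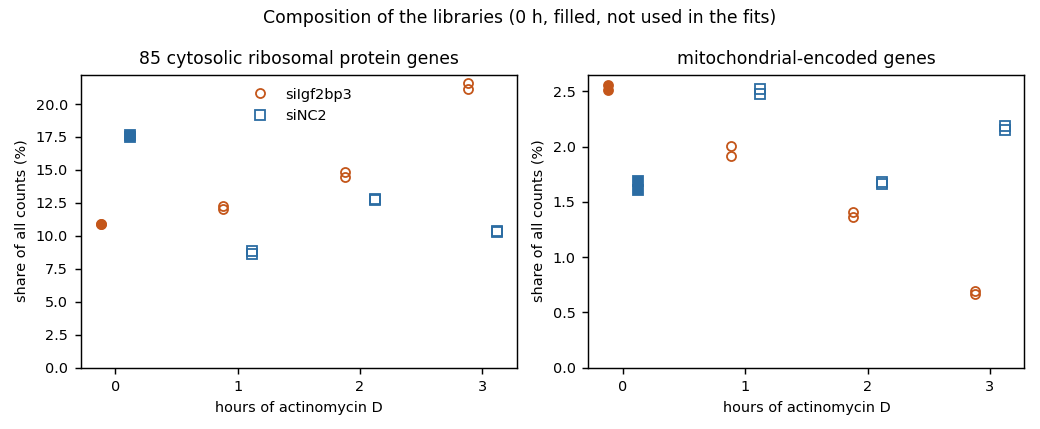
Share of all counts (%) in the 85 cytosolic ribosomal protein genes (left) and in mitochondrial-encoded genes (right) for each library against hours of actinomycin D, siIgf2bp3 as circles and siNC2 as squares. The ribosomal share is higher in siIgf2bp3 at 1, 2 and 3 h, and at 0 h (filled, not used in the fits) the order is turned round, with 10.9% in both siIgf2bp3 libraries against 17.7% and 17.5% in siNC2.

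The labelled target was lower in the siIgf2bp3 arm at each of the 3 hours. Igf2bp3 stood at 25.7 and 27.0 CPM at 1 h in siIgf2bp3, at 27.1 and 26.5 at 2 h and at 24.8 and 22.8 at 3 h. In siNC2 it stood at 40.1 and 40.2 CPM at 1 h, 31.5 and 33.1 at 2 h and 43.8 and 42.8 at 3 h. The arms did not overlap at any hour, and the gap was narrowest at 2 h. Over the 3 hours the difference was -0.57 ± 0.083 on the log2 scale (adjusted p = 0.00171, edgeR quasi-likelihood test; values after ± on log2 differences are standard errors), so the transcript was reduced and not lost. By hour the difference was -0.61, -0.27 and -0.85. Composition-adjusted, Igf2bp3 differed by -0.21 ± 0.080 and did not pass (adjusted p = 0.218). At 0 h the libraries went against their labels, with Igf2bp3 at 28.7 and 25.3 CPM in those labelled siIgf2bp3 and 19.9 and 16.7 in those labelled siNC2. These 0 h values were scaled over all libraries of the course. On that scale the 1 h values were 26.2 and 27.6 CPM in siIgf2bp3 and 40.9 and 41 in siNC2. Of the relatives of Igf2bp3, Igf2bp2 fell (-0.31 ± 0.058, adjusted p = 0.00246) but did not pass composition-adjusted (-0.12, adjusted p = 0.44, edgeR). Igf2bp1 did not pass (0.21 ± 0.090, adjusted p = 0.0579). Igf2bp1 passed in the same direction under RLE scaling, with DESeq2 and without any single one of 6 libraries (0.19 to 0.27), and its composition-adjusted value was -0.19. With each arm and hour given its own mean, the average of its 3 hourly differences was 0.22 (adjusted p = 7.95e-09, edgeR quasi-likelihood test).

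The PrE factors Gata4 and Gata6 and the surface receptor Pdgfra were lower in siIgf2bp3, while Sox17 and Foxa2 did not pass. Gata4, a zinc finger factor of the PrE program, stood at 132 and 133 CPM at 1 h in siIgf2bp3, 102 in both libraries at 2 h and 72.5 and 69.9 at 3 h. In siNC2 it stood at 178 and 172 CPM at 1 h, 135 and 129 at 2 h and 94.4 and 94.8 at 3 h. The arms were apart at every hour, by nearly the same factor each time (-0.40, -0.38 and -0.41), and the difference over the 3 hours was -0.40 ± 0.039 (adjusted p = 0.000373). It barely moved when composition was adjusted for (-0.38 ± 0.052, adjusted p = 0.00023).

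Gata6, which is needed to specify PrE, was at 65.1 and 58.9 CPM at 1 h in siIgf2bp3, 44.8 and 40.3 at 2 h and 24.3 and 24.9 at 3 h. In siNC2 it was at 82.9 and 85.3 CPM at 1 h, 53.1 and 51.2 at 2 h and 33.6 and 31.3 at 3 h. Again no library of one arm reached into the other at any hour, and the difference was -0.38 ± 0.051 (adjusted p = 0.0015; composition-adjusted -0.31 ± 0.074, adjusted p = 0.0377). Sox7, a later PrE factor, was lower overall (-0.36 ± 0.11, adjusted p = 0.0171), but its 3 h values of 3.95 and 7.41 CPM in siIgf2bp3 overlapped the 7.16 and 5.61 in siNC2. The call was lost without siNC2 1 h replicate 2 (-0.30, adjusted p = 0.061) and without either siIgf2bp3 1 h library (adjusted p = 0.0531 and 0.0551). Sox17, which acts beside Sox7, did not pass (-0.03 ± 0.085, adjusted p = 0.766), nor did Foxa2 (0.13 ± 0.18), and their arms overlapped.

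Pdgfra encodes the CD140a receptor, through which PrE cells are kept alive and by which PrE-T cells can be sorted. It gave 46.8 and 49.5 CPM at 1 h in siIgf2bp3, 37.8 and 38.9 at 2 h and 32.3 and 27.0 at 3 h. In siNC2 it gave 88.6 and 90.0 CPM at 1 h, 57.5 and 54.1 at 2 h and 62.3 and 63.6 at 3 h. The gap was wide at 1 and 3 h and narrower at 2 h, where siNC2 dipped. Over the 3 hours Pdgfra fell by 0.83 ± 0.082 on the log2 scale (adjusted p = 0.000373), the largest difference among the PrE factors and receptor named so far, and it stood at -0.51 ± 0.079 composition-adjusted (adjusted p = 0.00081). Dab2, an endocytic adaptor that PrE cells use to sort surface receptors, stood between 362 and 385 CPM in the 6 siIgf2bp3 libraries and between 481 and 656 CPM in the 6 siNC2 libraries. It fell by 0.59 ± 0.067 (composition-adjusted -0.29, adjusted p = 0.00142).

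**Figure D2:**
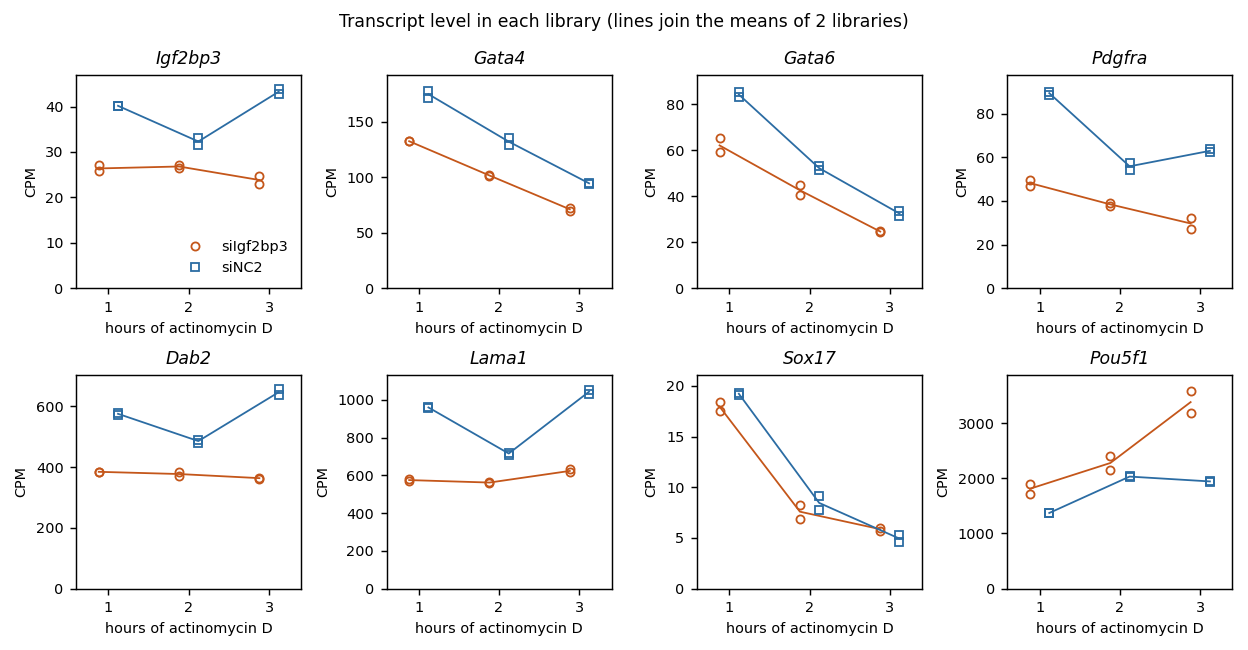
CPM of 8 transcripts in each library against hours of actinomycin D, siIgf2bp3 as circles drawn left of siNC2 as squares, with lines through the means of 2 libraries. Igf2bp3, Gata4, Gata6, Pdgfra, Dab2 and Lama1 are lower in siIgf2bp3 at every hour, Sox17 overlaps at 2 h, and Pou5f1 is higher in siIgf2bp3.

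Basement membrane genes, whose products PrE cells secrete, were lower too. Lama1, the laminin alpha chain of that membrane, stood between 560 and 632 CPM in siIgf2bp3 and between 710 and 1054 CPM in siNC2 (-0.61 ± 0.067, adjusted p = 0.000672; composition-adjusted -0.39, adjusted p = 0.00146). Col4a1, a type IV collagen chain, stood between 872 and 923 CPM in siIgf2bp3 and between 1161 and 1730 CPM in siNC2 (-0.64 ± 0.082; composition-adjusted -0.27, adjusted p = 0.00695). In both genes the siIgf2bp3 libraries formed a narrow band over the 3 hours, while the siNC2 libraries dipped at 2 h. Its partner Col4a2 (-0.57) and the laminin gamma chain Lamc1 (-0.87 ± 0.12) also fell, and both kept the call composition-adjusted (-0.28 and -0.22). The laminin linker Nid1 fell by 0.86 ± 0.16 but stood at -0.02 composition-adjusted (adjusted p = 0.897). The cubilin receptor gene Cubn (-0.75 ± 0.11) and its co-receptor Lrp2 (-0.64 ± 0.080), which take up nutrients in visceral endoderm, were lower, and of these Lrp2 kept the call (-0.32, adjusted p = 0.0178).

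Of 28 PrE genes, 18 fell and 4 rose, where 31.2% and 25.7% of all 13404 genes tested fell and rose. The median of the list was -0.34, against -0.02 for all genes. The 4 that rose were the keratin genes Krt18 (0.87 ± 0.14) and Krt8 (0.45), the coregulator gene Cited1 (0.69) and Amn (0.55), whose product anchors cubilin. The 6 that did not pass were Srgn, P4ha2, Foxa2, Sparc, Sox17 and Serpinh1, with differences between -0.09 and 0.13. By hour, 19 fell and 4 rose at 1 h (31.3% and 20.8% of all genes), 17 and 2 at 2 h (7.04% and 6.62%), and 16 and 7 at 3 h (34.3% each). Scaled to ribosomal protein genes, which moves the median of all genes to -0.71, Krt8 (-0.26), Cited1 (-0.02) and Amn (-0.15) turned negative. Each stayed above that median, so the change of sign follows from the shift of all genes.

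Composition-adjusted, 12 PrE genes fell and none rose, with a median of -0.27, against 0.903% falling and 0.224% rising of all genes and a median of -0.05. They included Gata4, Pdgfra, Dab2, Gata6, Lama1, Col4a1, Col4a2, Lrp2, Lamc1 and the collagen-processing genes P4ha2 (-0.24) and Serpinh1 (-0.30). When the 2 libraries of each group were summed to 1, none of 13837 genes tested passed (3848 at an unadjusted p under 0.05). The differences kept their size there, with Gata4 at -0.40, Pdgfra at -0.84 and Igf2bp3 at -0.58 (adjusted p = 0.174 for each), and that fit has 2 residual degrees of freedom. With the 0 h libraries included 5 PrE genes fell. The list was chosen with earlier results of this series known, so its direction is no independent evidence. In these unsorted cultures fewer PrE cells and less PrE RNA per cell cannot be told apart. Summed over the 6 PrE markers, the level was 508.9 to 687.1 CPM in siIgf2bp3 and 761.5 to 1001 CPM in siNC2. Most of that sum was Dab2 in each of these libraries. At 0 h the sums were 727.7 and 715.6 CPM in siIgf2bp3 and 666.9 and 661.2 CPM in siNC2.

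**Figure D3:**
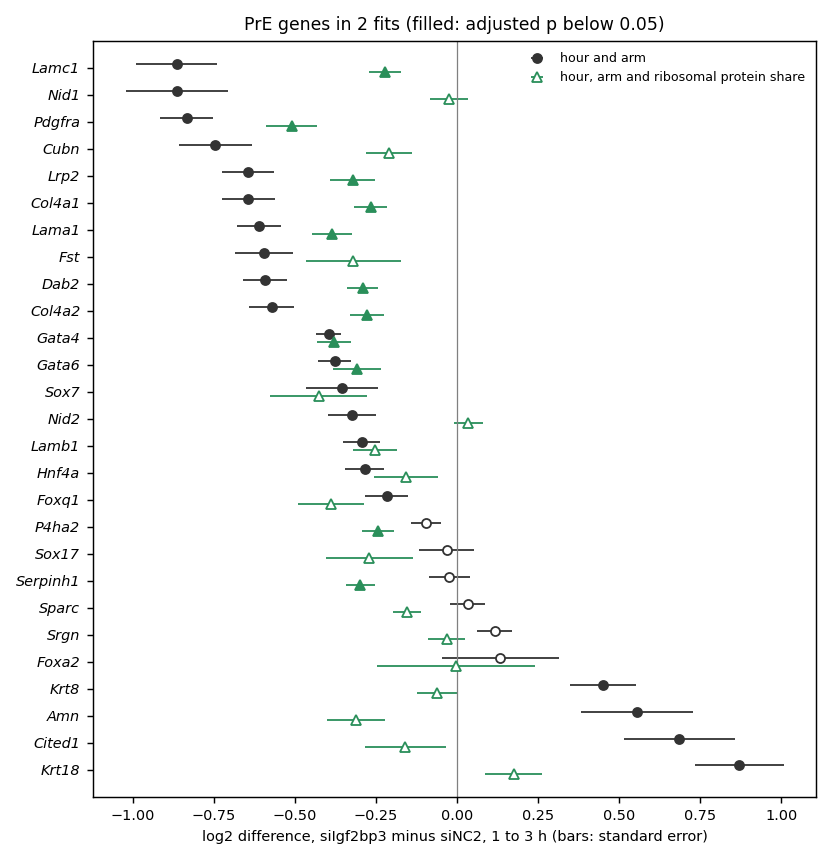
Log2 difference of each PrE gene shown, siIgf2bp3 minus siNC2 over 1 to 3 h, with its standard error, from the fit of hour and arm (circles) and with the ribosomal protein share added (triangles), filled where adjusted p is below 0.05. Gata4 and Gata6 hardly move between the fits, while Nid1 and Nid2 move to about 0 and Krt8, Cited1 and Amn cross it.

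Pluripotency genes were called in both directions. The 4 EPI markers summed to 3392 to 5427 CPM in siIgf2bp3 and 2807 to 3437 CPM in siNC2, with Pou5f1 and Tdgf1 the members that rose. Pou5f1, the POU factor of the pluripotent network, ran from 1725 to 3587 CPM in siIgf2bp3 and from 1365 to 2047 CPM in siNC2 (0.46 ± 0.093, adjusted p = 0.00285) and was at 0.02 composition-adjusted (adjusted p = 0.903). Tdgf1, the Nodal co-receptor, rose by 0.33 ± 0.056 and kept the call (0.26, adjusted p = 0.033). Scaled to ribosomal protein genes, which lowers the centre of all genes, Pou5f1 was at -0.26 and Tdgf1 at -0.38. Nanog (0.03 ± 0.044) and Sox2 (0.03 ± 0.054), both core factors, did not pass. Of 23 naive genes 8 rose and 5 fell, where 25.7% and 31.2% of all genes did (median 0.09), with the chromatin factor gene Dppa3 highest of the 4 with the lowest p (0.89 ± 0.12, composition-adjusted 0.40, adjusted p = 0.223). Of 14 formative genes 5 rose and 4 fell, likewise near the shares of all genes. The falling ones included the DNA methyltransferase genes Dnmt3a (-0.34) and Dnmt3b (-0.37), both not called composition-adjusted (adjusted p = 0.0908 and 0.21).

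Transcripts described elsewhere as IGF2BP targets were examined as a list of 17 tested genes, known mostly from human cells. Of these, 6 fell and 3 rose (31.2% and 25.7% of all genes), with a median of -0.07, so the counts lay near those of all genes. Those that fell included Hmga2 (-0.39 ± 0.055), an architectural chromatin protein gene, Igf2 (-1.63 ± 0.39), the fetal growth factor gene that gave the family its name, the proliferation gene Mki67 (-0.37), the hyaluronan receptor gene Cd44 (-0.40) and the cyclin G gene Ccng1 (-0.19). Igf2 was near the limit of detection, at 0 to 0.256 CPM in siIgf2bp3 and 0.27 to 0.663 CPM in siNC2. Hmga2 stood between 62.7 and 77.2 CPM in siIgf2bp3 and between 77.1 and 109 CPM in siNC2, apart at each hour. The D-type cyclin gene Ccnd3 (0.27), the thymidine kinase gene Tk1 (0.36) and Actb (0.22) rose. Those not passing included the growth regulator gene Myc (-0.07 ± 0.085, adjusted p = 0.511), Lin28b, Mapk4, Cdk6, Btrc, Ccnd1 and Fscn1. Composition-adjusted, the actin-bundling gene Fscn1 alone fell (-0.28, adjusted p = 0.00962) and none of the 17 rose, where 0.903% and 0.224% of all genes did. The calls of Ccng1 and Actb each hung on single libraries, with adjusted p up to 0.0765 and 0.0764 when 1 was left out.

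Across the transcriptome, 7620 of 13404 genes tested (56.8%) differed between the arms over 1 to 3 h, 3440 of them higher and 4180 lower in siIgf2bp3, and 102 and 128 by at least 2-fold. The split depends on the scaling. It was 3971 higher and 3509 lower under RLE scaling, 3920 and 3513 with DESeq2, and 3675 and 3460 with no filter. It was 2321 higher and 5386 lower under library totals, where the median of all genes moved to -0.15. It was 87 higher and 10829 lower when scaled to ribosomal protein genes, where the median moved to -0.71. By hour, 6973 genes passed at 1 h (52%), 1830 at 2 h (13.7%) and 9204 at 3 h (68.7%). The splits there were 2782 higher and 4191 lower at 1 h (4044 and 2959 under RLE scaling), 887 and 943 at 2 h (634 and 1550 under library totals), and 4603 and 4601 at 3 h (2824 and 6761 under library totals). At 2 h, the hour with the smallest gap in ribosomal share, the count lay between 704 and 2149 when single libraries were left out, with 704 and 823 without siNC2 2 h replicate 1 and 2 and 875 without siIgf2bp3 2 h replicate 2, and it was 892 with DESeq2. Composition-adjusted, 151 genes passed (1.13%), 30 higher and 121 lower. Of these, 72 had also passed in the same direction without the adjustment, 46 had not passed and 33 had passed in the opposite direction.

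The libraries of the arms were apart at every hour in 16.3% of genes with siIgf2bp3 higher and 20.1% with it lower. Among the 12 largest rises of this kind was mt-Nd6, the light-strand gene of the mitochondrial genome (1.27 ± 0.25), at 18.3 and 17.0 CPM at 1 h, 17.8 and 19.8 at 2 h and 39.7 and 47.6 at 3 h in siIgf2bp3. In siNC2 mt-Nd6 stood at 12.1 and 9.89 CPM at 1 h, 10.8 and 11.8 at 2 h and 8.09 and 7.28 at 3 h. The arms were apart at every hour and farthest at 3 h. The strand used in counting is not given in the sources used here, so reads of mt-Nd6 and of transcripts from the opposite strand cannot be told apart. The ATP synthase subunit genes Atp5k (1.17) and Atp5e (1.14), Etfb (1.17), which passes electrons to the respiratory chain, and the ribosomal genes Rplp2 (1.16), Rpl38 (1.12), Rpl36 (1.11) and Mrpl52 (1.14) were also among the 12, with the thiolase gene Acat3 (1.22), S100a6 (1.13) and Scand1 (1.10). None of the 12 passed composition-adjusted, where the values of those named lay between -0.15 and 0.29.

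The 12 largest falls were led by Itga6, an integrin that binds laminin (-1.82 ± 0.38). It stood at 54.4 and 53.6 CPM at 1 h in siIgf2bp3, 34.7 and 36.4 at 2 h and 10.6 and 11.5 at 3 h, and in siNC2 at 136 and 138 CPM at 1 h, 58.1 and 58.5 at 2 h and 143 and 151 at 3 h. The siNC2 libraries at 2 h thus lay closer to siIgf2bp3 than those at 1 or 3 h did. Composition-adjusted, Itga6 was at 0.15 (adjusted p = 0.543). Others were the histone methyltransferase gene Kmt2c (-1.60), Dennd4c (-1.57), Ankhd1 (-1.50), Rbm41 (-1.45), Gm21060 (-1.43), the lipid transport gene Vps13c (-1.42), Gm17067 (-1.33), Myef2l (-1.32), the ferritin receptor gene Ncoa4 (-1.31) and Ankrd52 (-1.25). Col12a1, a fibril-associated collagen gene, was the one of the 12 that kept the call (-1.81 ± 0.19, composition-adjusted -0.80, adjusted p = 0.0103). It stood between 2.83 and 5.46 CPM in siIgf2bp3 and between 8.37 and 22.1 CPM in siNC2.

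Several lists changed mostly in 1 direction, where 25.7% of all genes rose and 31.2% fell. Of 85 cytosolic ribosomal protein genes 83 rose and none fell (median 0.76). Of 34 nuclear respiratory chain genes 30 rose and 2 fell (median 0.61), and of 56 histone genes 30 rose and none fell (median 0.55). Composition-adjusted, these medians were -0.08, -0.08 and -0.08, and 0, 0 and 1 genes rose. The adjustment uses the ribosomal genes themselves, so their own values there are no test. Scaled to ribosomal protein genes, the histone, respiratory and trophectoderm medians became -0.13, -0.10 and -0.22, where that of all genes was -0.71. In the other direction, 30 of 51 genes of the mRNA decay machinery fell and 8 rose (median -0.19). Cnot1, the scaffold of the deadenylase complex, fell by 0.69 ± 0.11, and the decapping gene Dcp2 by 0.42 ± 0.062, and no decay gene passed composition-adjusted. Of 25 mitosis genes 16 fell and 3 rose (median -0.28), with the cytokinesis gene Ect2 at -0.71 (composition-adjusted 0.01). Of 339 numbered Zfp genes, which encode mostly repressive zinc finger proteins, 139 fell and 24 rose (median -0.21), and 0 passed composition-adjusted.

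Other lists were smaller or divided, and several of their counts lay near the 25.7% of all genes that rose and the 31.2% that fell. Of 15 imprinted genes 10 fell and 4 rose (median -0.31), among them the zinc finger genes Zim1 (-1.17 ± 0.19) and Plagl1 (-0.81 ± 0.12), and Nnat (0.67) and Cdkn1c (0.47), a cell cycle inhibitor, which rose. None passed composition-adjusted. Of 12 genes of m6A readers and erasers 7 fell and 2 rose (median -0.26), and of 9 m6A writer genes 3 fell and 1 rose (median -0.01), again with 0 calls composition-adjusted. The m6A reader gene Ythdf2 did not pass (0.06 ± 0.060, adjusted p = 0.397). Of 22 cholesterol synthesis genes 14 fell and 5 rose (median -0.18), and of 10 mitochondrial-encoded genes 5 fell and 1 rose. Of 24 immediate early genes 10 rose and 1 fell (median 0.18), of 21 ATF4 and stress genes 10 rose and 4 fell, and of 25 spliceosome genes 14 rose and 6 fell (median 0.37). Visceral and parietal endoderm genes, which mark the lineages that PrE forms later, rose in 7 and fell in 4 of 15 cases (median 0.18). Their composition-adjusted median was -0.20, with 2 falling and none rising, where 0.903% and 0.224% of all genes did. The remaining lists, of FGF and ERK response, Nodal and BMP, Wnt, p53, replication, glycolysis, interferon, splicing regulator and 2-cell genes, had medians between -0.15 and 0.17.

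Differences also ran with gene length. In the fifth of genes with the shortest span in the genome (median 4.42 kb) the median difference was 0.33. Of its 2656 genes 1450 were higher and 147 lower, where 25.7% and 31.2% of all genes tested were. In the fifth with the longest span (median 118 kb) the median difference was -0.29, with 144 of 2656 genes higher and 1518 lower. The groups between had medians of 0.12, -0.03 and -0.18. Over 13279 genes with a span, Spearman's rho of span and difference was -0.55, and 0.04 composition-adjusted (across genes, which share libraries and are not replicates). The part of span in the list results was not tested.

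Markers of other cell types were counted beside these lists. Of 17 fibroblast and feeder genes 8 fell and 1 rose, where 31.2% and 25.7% of all genes did (median -0.25). Their 8 defining markers summed to 49.5 to 56.1 CPM in siIgf2bp3 and 56.5 to 79.5 CPM in siNC2, with Lum at 0 to 3 counts in every library. Composition-adjusted, 4 of the 17 genes fell and 3 rose, where 0.903% and 0.224% of all genes did. Acta2, a smooth muscle actin gene, fell by 0.57 ± 0.063 (composition-adjusted -0.61 ± 0.095, adjusted p = 0.000964), at 20.6 to 31.5 CPM in siIgf2bp3 and 28.1 to 49.4 CPM in siNC2. Fbln2, a matrix fibulin gene, rose (0.21 ± 0.080, composition-adjusted 0.59, adjusted p = 2.96e-05). Of 13 trophectoderm genes 6 rose and 1 fell, against the same shares of all genes (median 0.43, composition-adjusted -0.03 with 0 calls), and 7 trophectoderm markers summed to 114.3 to 177 CPM in siIgf2bp3 and 86.4 to 113 CPM in siNC2. Most of that sum was Krt8 and Krt18, which PrE cells also express, while Elf5 and Gata3 had at most 5 counts at 1 to 3 h. The part of these cell types in the PrE result was not tested.

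**Figure D4:**
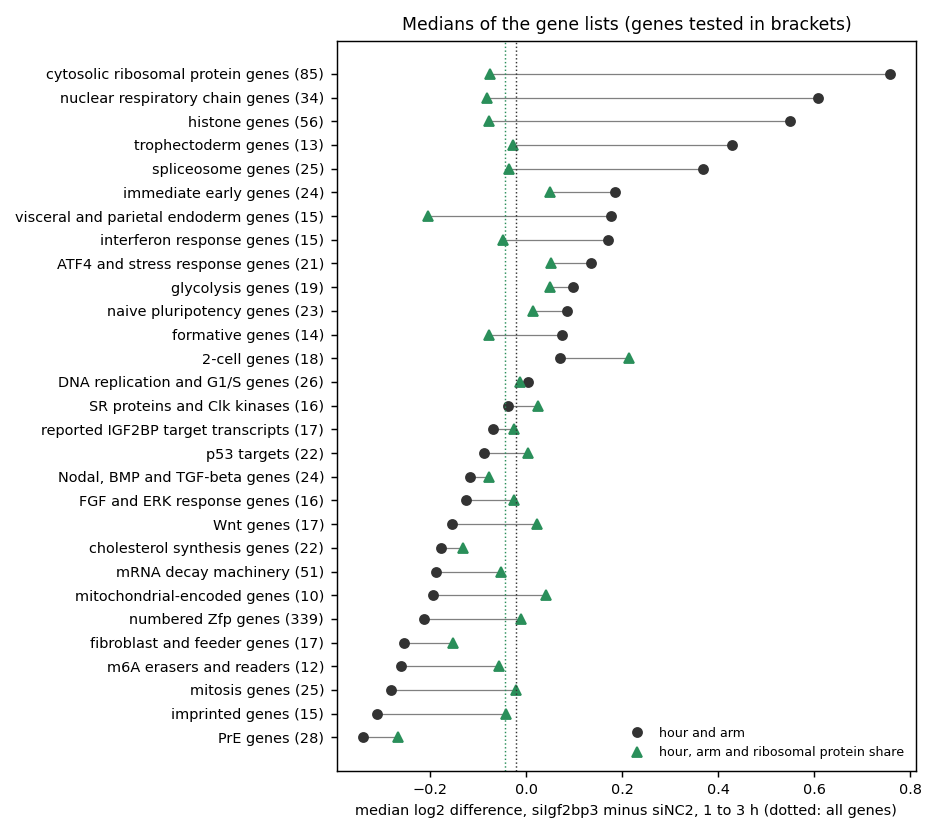
Median log2 difference of each gene list, siIgf2bp3 minus siNC2 over 1 to 3 h, from the fit of hour and arm (circles) and with the ribosomal protein share added (triangles), with dotted lines at the medians of all genes. With the share added, the ribosomal, respiratory and histone medians move to -0.08, and that of the PrE genes moves from -0.34 to -0.27.

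Some other genes passed in both fits. The stress gene Ddit4, which restrains mTORC1, rose by 0.64 ± 0.060 (composition-adjusted 0.51 ± 0.080, adjusted p = 0.000964). It stood at 62.5 and 63.6 CPM at 1 h in siIgf2bp3, 57.9 and 60.9 at 2 h and 42.8 and 42.3 at 3 h, and in siNC2 at 47.2 and 43.6 CPM at 1 h, 37.5 in both libraries at 2 h and 25.3 and 23.1 at 3 h; it declined in both arms and was higher in siIgf2bp3 at each hour. The next 5 genes were picked after their values had been seen, for low adjusted p in the composition-adjusted fit. The hormone precursor gene Trh (0.78 ± 0.069, composition-adjusted 0.47), the cytokine gene Csf1 (0.52 and 0.67) and the lipid droplet gene Plin2 (0.62 and 0.63) rose. Scaled to ribosomal protein genes, which moves the median of all genes to -0.71, Ddit4 (-0.06), Csf1 (-0.19) and Plin2 (-0.09) turned negative. Each stayed above that median. The myosin light chain gene Myl9 (-0.56 and -1.01) and the lysyl oxidase gene Loxl3 (-0.88 and -1.13) fell. Plin2 stood between 30.7 and 34.0 CPM in the 6 siIgf2bp3 libraries and between 20.6 and 22.9 CPM in the 6 siNC2 libraries, nearly flat over the hours in both.

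The slope over 1 to 3 h asks whether transcripts were lost faster in one arm. No gene of 13404 (0%) had a different slope in siIgf2bp3 and siNC2 at an adjusted p under 0.05 in edgeR, although 3231 had an unadjusted p under 0.05 and DESeq2 called 688, 152 higher and 536 lower. The lowest adjusted p was 0.106, and without siNC2 2 h replicate 1 or replicate 2 the count was 581 or 598. The slope treats the hours as a straight line. With each arm and hour given its own mean instead, the arm difference at 3 h differed from that at 1 h in 5400 genes, higher in 3263 and lower in 2137. Within arms 3677 slopes were higher (27.4%) and 3214 lower (24%) than 0 in siIgf2bp3, and 811 (6.05%) and 2444 (18.2%) in siNC2.

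In the straight-line fit, the slopes of the PrE transcription factors did not differ between the arms beyond their error. That error also holds departures from the line, so the intervals below hold for straight lines only. They also hold only for the scaling used (TMM), under which the median slope difference of all genes was 0.04. This median was -0.12 under library totals and -0.40 when scaled to ribosomal protein genes, with 0 genes passing in each. Gata4 fell by 0.45 ± 0.036 log2 units per hour in siIgf2bp3 and by 0.44 ± 0.035 in siNC2, a slope difference of -0.0042 with a 95% interval from -0.11 to 0.10. Gata6 fell by 0.66 ± 0.048 in siIgf2bp3 and 0.69 ± 0.046 in siNC2 (difference 0.02, interval -0.12 to 0.17). Sox7 and Sox17 were the faster ones, at -1.17 and -0.84 per hour in siIgf2bp3 and -1.28 and -1.001 in siNC2, with intervals of the difference from -0.22 to 0.43 and from -0.15 to 0.47. Pdgfra declined more slowly, by 0.35 ± 0.084 in siIgf2bp3 and 0.26 ± 0.077 in siNC2 (interval -0.34 to 0.16). Gata4 and Gata6 were lower in siIgf2bp3 at 1 h and at 3 h. In the 0 h libraries, which go against their labels in Igf2bp3, the arm difference was -0.02 ± 0.040 for Gata4 (adjusted p = 0.603), -0.23 ± 0.052 for Gata6 (adjusted p = 0.000329) and 0.16 ± 0.060 for Pdgfra (adjusted p = 0.0229). With these libraries included, edgeR slopes over 0 to 3 h differed in 8 named genes and not in 7 others. The 8 included Sox17 (0.25, adjusted p = 0.0219), Pdgfra (-0.31, adjusted p = 0.0499) and Col4a1 (-0.36, adjusted p = 0.0116).

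Other PrE transcripts, such as Lama1 and Col4a1, had slopes near 0, close to the median of all genes. That median was -0.007 per hour in siIgf2bp3 and -0.002 in siNC2. Lama1 changed by 0.06 per hour in both arms (interval of the difference -0.25 to 0.25), though with the ribosomal share in the fit the difference was 0.27 (adjusted p = 0.0232). Col4a1 had -0.01 ± 0.075 in siIgf2bp3 and 0.14 ± 0.071 in siNC2 (interval -0.37 to 0.08). Igf2bp3 itself had -0.07 ± 0.076 in siIgf2bp3 and 0.05 ± 0.070 in siNC2 (interval -0.35 to 0.10). From group means in edgeR, the arm difference at 3 h minus that at 1 h passed in 5 named genes and not in 10 others. The 5 included Col4a1 (-0.29, adjusted p = 6.72e-05) and Igf2bp3 (-0.24, adjusted p = 0.034). Over the 28 PrE genes, 9 slopes were lower and 8 higher than 0 in siIgf2bp3 (24% and 27.4% of all genes), and 8 and 4 in siNC2 (18.2% and 6.05%), and the same 8 genes were lower in both. The median slope difference was 0.01, against 0.04 for all genes, and the median half-width of the 95% interval was 0.23 per hour (0.25 for all genes). Slope differences of PrE genes ran from -0.39 for Nid1 to 0.53 for Amn. Of other short-lived transcripts, Myc fell by 1.11 ± 0.057 per hour in siIgf2bp3 and 1.03 ± 0.057 in siNC2, and Sox2 had slopes of -1.20 in siIgf2bp3 and -1.13 in siNC2. Of 24 immediate early genes, 20 declined in siIgf2bp3 and 23 in siNC2.

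**Figure D5:**
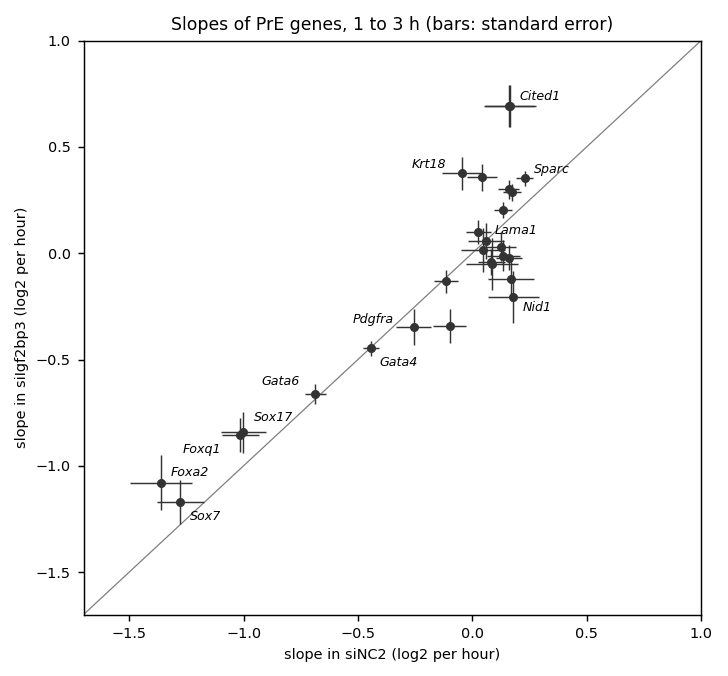
Slope over 1 to 3 h of each PrE gene shown in siIgf2bp3 against its slope in siNC2, both in log2 units per hour with standard errors, and the line of equal slopes. Gata4, Gata6 and Sox7 lie on or near the line, at -0.45, -0.66 and -1.17 in siIgf2bp3.

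The change was next read against transcripts that co-precipitate with Igf2bp3. Of 12904 genes tested in the RIP, 8997 differed between IP and input (69.7%), 4512 higher (35%) and 4485 lower (34.8%) in IP (3377 and 5748 under library totals). Of the 1314 at least 2-fold higher in IP, 1183 were also tested in the siRNA arms. Of these 1183, 683 (57.7%) fell and 33 rose in siIgf2bp3, with a median of -0.32, against 31.2% and 25.7% of all genes. At 4-fold 76 of 156 fell (48.7%) and 5 rose, a lower share than at 2-fold. Of 1361 genes at least 2-fold lower in IP, 980 (72.0%) rose. Composition-adjusted, 18 of the 1183 fell (1.52%) and 2 rose, with a median of -0.09, against 0.903% and 0.224% of all genes and a median of -0.05. RIP enrichment went along with genomic span (Spearman's rho 0.47 over genes), and rho between RIP enrichment and the siIgf2bp3 difference was -0.53, or -0.07 composition-adjusted. The RIP set had a median slope difference of -0.06 per hour, against 0.04 for all genes.

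Single PrE transcripts differed in the RIP. Dab2 (1.97 ± 0.016), Sox7 (1.17) and Lrp2 (1.03) were over 2-fold higher in IP than in input, while Pdgfra (0.75), Lama1 (0.73), Col4a1 (0.61), Gata4 (0.60) and Gata6 (0.36) were higher by less. Sox17, which did not differ between the siRNA arms, was lower in IP (-0.53 ± 0.11), and so were Krt18 (-0.66), Cited1 (-1.60) and Amn (-0.97), the PrE genes that rose, with Krt8 (0.51) as the exception. Composition-adjusted, Krt18 differed between the siRNA arms by 0.17 (adjusted p = 0.355, edgeR), and Krt8 (-0.06), Cited1 (-0.16) and Amn (-0.31) were negative. The part of binding in these directions was not tested. Between sorted PrE-T and EPI-T cells 68.6% of 14373 genes differed, 35.8% higher and 32.8% lower in PrE-T. Of 1141 genes at least 4-fold higher in PrE-T, 362 (31.7%) fell and 192 (16.8%) rose, with a median of -0.09, where 31.2% and 25.7% of all genes did. Composition-adjusted, 60 of them fell (5.26%) and 5 rose, against 0.903% and 0.224% of all genes. Of 969 genes 4-fold higher in EPI-T, 193 (19.9%) fell and 217 (22.4%) rose, and composition-adjusted 2 fell and 9 rose. Genes both PrE-T-high and 2-fold higher in IP numbered 234, of which 132 (56.4%) fell and 6 (2.56%) rose. In the whole set 2-fold higher in IP, 57.7% fell and 2.79% rose. Composition-adjusted, 15 of the 234 fell (6.41%) and 0 rose, where 5.26% of the PrE-T-high genes fell.

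The same cells given siVirma instead, with siNC1 as their own control and a table of their own, serve as a side by side reading. There 9270 of 13501 genes differed over 1 to 3 h (68.7%), and 3124 composition-adjusted (23.1%). Gata4 differed by -1.34 ± 0.038 in siVirma and by -0.40 ± 0.039 in siIgf2bp3, Gata6 by -1.49 and -0.38, Pdgfra by -1.96 and -0.83, and Dab2 by -1.67 and -0.59. Of the 28 PrE genes 25 fell with siVirma, where 34.7% of all genes did (median -1.20, composition-adjusted -1.06), against 18 with siIgf2bp3. Sox17 fell with siVirma (-0.83 ± 0.070) and did not pass with siIgf2bp3. Virma itself was at -0.50 ± 0.088 in siIgf2bp3 (composition-adjusted -0.09, adjusted p = 0.58). Igf2bp3 was at -0.77 ± 0.055 in siVirma (composition-adjusted -0.51, adjusted p = 0.00121). No test was made between the courses. Over 13276 genes tested in both, Spearman's rho of the 2 differences was 0.63, and 0.07 composition-adjusted. The ribosomal share was higher in siVirma than in siNC1 at 1, 2 and 3 h too. It was 13.27% and 12.81% against 10.4% and 10.27% at 1 h. At 2 h it was 15.59% and 15.52% against 14.25% and 14.74%, and at 3 h 15.99% and 15.56% against 12.57% and 12.55%. At 0 h the order was turned round, with 12.13% and 11.85% in siVirma against 18.26% and 18.76% in siNC1.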

How the data were processed

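Counts per gene were used as the authors deposited them, whole and not normalized, in 4 tables. Per the submitters' processing notes, the build was mm39 and the tools were Subread, STAR 2.7.11b, DESeq2, Trim Galore and FastQC 0.12.1. Their settings, the strand used and the kit of each library are not given in the sources used here. All 21812 symbols are as in the tables, and other per-sample columns numbered 0.

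Here, groups came from the labels. Genes were filtered with filterByExpr, scaled by TMM and tested with edgeR 4.0.16 (limma 3.58.1, R 4.3.3) by its quasi-likelihood test with hour as a factor and arm, Benjamini-Hochberg adjusted over all genes tested, threshold 0.05. Slopes used hour as a number within each arm. CPM values use TMM-scaled totals. Totals of 13141572 to 21108399 counts limit the precision of low genes. Where edgeR's Poisson bound set a p-value, the standard error follows from that p. The procedure was tested on simulated data. RLE scaling, library totals, no filter, a replicate block, DESeq2 1.42.0, the mean of the 3 hourly differences and leaving out single libraries were alternatives. The ribosomal share covariate, pairs summed and pairs of hours were added after seeing the data. Same-numbered libraries of the arms did not deviate together (r = -0.0541, 0.0542 and 0.0468 at 1, 2 and 3 h), which gives no sign of pairing. Pairing is not excluded, since the siNC2 pairs differed by little more than sampling noise and left little to correlate. Chi-square per degree of freedom within pairs was 1.31 to 1.41 in siNC2 and 2.64 to 4.17 in siIgf2bp3 at 1 to 3 h.

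Members and lists were chosen with earlier results of these data known. Named genes were Igf2bp3, a fixed set of anchors, the 12 largest rises and falls (arms apart at each hour, mean log2 CPM no lower than 3), and the 4 list members with the lowest adjusted p. Other genes were named after their values had been seen. Some genes the rule names are not reported here.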

Additional observations from a re-analysis of the deposited data

Results flagged for a closer look

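At 0 h the arms differed in another way than at 1 to 3 h, by a test of the 0 h difference minus the mean of the 3 later ones. For Igf2bp3 that quantity was 1.142, since the libraries labelled siIgf2bp3 held more of its transcript than those labelled siNC2 at 0 h. For its relatives Igf2bp1 and Igf2bp2 it was -0.4962 and 0.5249. Among PrE genes it was 0.3728 for Gata4, 0.1511 for Gata6, -0.5795 for Sox17, 0.3405 for Sox7 and 0.992 for Pdgfra. Among pluripotency genes it was 0.1658 for Nanog, 0.5767 for Sox2 and -0.8149 for Pou5f1, and for Virma it was 0.9855. The ribosomal share was also turned round at 0 h, and its part was not tested.

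The arm difference also moved between the hours. It differed between 3 h and 1 h in 5400 genes, 3263 higher and 2137 lower at 3 h.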

How the results depend on the processing

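The 1 to 3 h difference gave 6432 to 7779 calls when single libraries were left out, and 18 PrE genes falling became 16 to 18. With each arm and hour given its own mean, the mean of the 3 hourly differences gave 9434 calls, 4435 higher and 4999 lower. That fit, where differences between the hours do not count as spread, also called Igf2bp1 (0.22), Srgn (0.12), P4ha2 (-0.09) and Lin28b (-0.17). Alternatives with far fewer calls were the 0 h libraries included (142), the ribosomal share as a covariate (151), pairs summed to 1 library (0) and 2 and 3 h only (4065). At 2 h DESeq2 gave 892 calls, and leaving out single libraries gave 704 to 2149. The slope difference gave 688 calls with DESeq2, 7110 over 0 to 3 h, 5400 for 3 h minus 1 h from group means and 519 with the covariate. It gave 0 to 598 when single libraries were left out, reaching 581 and 598 without siNC2 2 h replicate 1 and 2. The siVirma comparison gave 3124 with the covariate. The cause of these moves was not tested. With the replicate block, the numbers of calls were 7371 over 1 to 3 h, 7229, 2291 and 9341 at 1, 2 and 3 h, 0 for the slope difference, 8940 for the RIP and 9236 for siVirma. Same-numbered libraries of different hours correlated at 0.313 to 0.337 within siIgf2bp3 and at -0.00699 to 0.0878 within siNC2, a hint from the data and not from the design.

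Scaled to ribosomal protein genes, which lowers the median of all genes to -0.713, these differences, called in at least 1 of the fits, turned negative: Igf2bp1 (-0.4978), Nanog (-0.6768), Sox2 (-0.6715), Pou5f1 (-0.259), Krt8 (-0.2594), Cited1 (-0.02188), Amn (-0.1543), Srgn (-0.5951), Sparc (-0.68), Tdgf1 (-0.3827), Ccnd3 (-0.438), Tk1 (-0.3562), Actb (-0.4918), Cdk6 (-0.6605), Fscn1 (-0.7073), Ddit4 (-0.05959), Csf1 (-0.1906), Plin2 (-0.09159) and Ythdf2 (-0.6426). With the covariate, among named genes called in at least 1 of the fits, the sign turned for Nid2 (0.03492), Krt8 (-0.06071), Cited1 (-0.1593), Amn (-0.3114), Ccnd3 (-0.02589), Tk1 (-0.1147), Actb (-0.1259), Cd44 (0.08053), Fscn1 (-0.2776), Ect2 (0.0138), Itga6 (0.1458), Ncoa4 (0.1178), Atp5e (-0.1344), Etfb (-0.1026), Mrpl52 (-0.07945), Rpl36 (-0.0883), Rpl38 (-0.03346), Rplp2 (-0.1506), Scand1 (-0.1309), Ankrd52 (0.2476), Gm17067 (0.01686), Gm21060 (0.24) and Myef2l (0.2077), and for the slope difference of Lama1 (0.2739). Depth limits low genes such as Foxa2 and Igf2.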
